A study of Canis lupus familiaris with 29 samples.

Results

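The genes described here encode chaperones and folding factors of the endoplasmic reticulum (ER) and the regulators that act with them. The 9 genes, chosen by symbol, were HSPA5, HSP90B1, HERPUD1, DNAJB9, SDF2L1, PDIA4, XBP1, CRELD2 and MANF. Of these, 8 had a row under their name among the 24223 genes of the deposited expression values, and XBP1, the transcription factor of the IRE1 branch, was not analysed here. All 8 were among the 11774 genes tested.

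Secreted and membrane proteins fold in the ER, where HSPA5 (also called BiP) binds unfolded chains and passes them to partner chaperones and disulfide isomerases. When unfolded protein accumulates, the sensors IRE1, PERK and ATF6 raise the transcription of chaperones and of ER-associated degradation (ERAD) factors in a programme named the unfolded protein response. The genes above are commonly used as its read-outs, and many of them, falling and rising ones alike, are widely studied as targets of its transcription factors ATF6 or XBP1.

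MDCKII is an epithelial line from dog kidney that forms hollow cysts in matrigel (3D) and polarised monolayers on transwell inserts (2D). RNA abundance was measured by stranded mRNA sequencing in 29 libraries of 13 groups, as FPKM (fragments scaled to transcript length and library total), so that levels of different genes are on a per-length scale. The labels give knockdown (KD) cells of DENND5A and of AVL9, genes that encode DENN domain proteins. For DENND5A-KD there were 2 libraries each of the cells used for seeding (day 0), of 2D day 4 and of 2D day 7, and for AVL9-KD 2 each of day 0 and 2D day 4. Unmodified (wild-type) cells gave 4 libraries of day 0, 2 each of cysts at 24 h, day 3, day 5 and day 8, 1 of day 14 cysts, and 3 each of monolayers at 2D day 4 and day 11. Knockdown lines are numbered 1 and 2 for DENND5A and 1 and 4 for AVL9, and whether a number is a clone or a targeting sequence is not given in the sources used here. No control line carrying a non-targeting construct was used here, so knockdown cells are set against unmodified cells. Nothing says that wild-type libraries of a group came from separate cultures, so their spread may be technical. The 2 libraries of a knockdown group are of differently numbered lines, so their spread also holds differences between lines. The p-values measure the spread between these libraries, pooled over all groups.

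The targeted genes were lower in their knockdowns. At day 0, DENND5A read 2.02 and 1.88 FPKM in DENND5A-KD cells, against 4.98 to 6.89 FPKM in wild type, and AVL9 read 7.21 and 5.70 FPKM in AVL9-KD cells, against 22.2 to 23.7 FPKM in wild type. Absolute depth is unknown, and depth relative to a day 0 library, read from the steps between low values, spanned 0.451 to 1.66. The lowest depths among wild-type libraries, 0.451 to 0.742, belonged to 5 that were set apart. They are number 1 of day 0, of 3D days 3 and 8 and of 2D day 4, and the day 14 library. The day 14 label carries no number, and number 1 of 2D day 11 (0.877) is not among the 5. The sample titles do not mark these 5 as a batch. Fits with a batch term for them or without them were added after seeing the data. Depth alone does not set these 5 apart. AVL9-KD line 4 at 2D day 4 (0.532) and AVL9-KD line 1 at day 0 (0.732) were as shallow. Called differences of the 8 genes between AVL9-KD and other cells are given below without these shallow AVL9-KD libraries too. Results on the lists of related genes are not. Of 22 called changes of the 8 genes that could be computed both within those 5 and within the others, 22 had the same sign in both. These changes were chosen by their call in all libraries together, so a shared sign was likely beforehand and is no independent check. Within the 5, each value is 1 library minus number 1 of day 0, and sizes could differ. HERPUD1 at 2D day 4 rose by 0.29 within the 5 and by 0.94 within the others. Of the kidney epithelial markers, 6 of 8 names were measured, with a summed level of 505 to 824 FPKM, and CDH1, EPCAM, PAX2 and PAX8 were present in every library. CDH16 ranged from 0.0345 to 68.6 FPKM and CLDN2 from 0 to 163 FPKM. In wild type the list summed to 505 to 611 FPKM at 3D day 8, 609 to 732 FPKM at 2D day 4 and 513 to 589 FPKM at day 0. Of other cell types, 7 of 8 fibroblast, 6 of 6 endothelial and 6 of 6 leukocyte markers were measured. COL1A1, COL1A2, COL3A1, PECAM1, PTPRC and CD3E read at most 0.164 FPKM, whereas FBLN1, FLT1 and CD74 from those lists were present (up to 17.5, 55.6 and 1517 FPKM). These 3 moved with culture. The leukocyte list, nearly all of it CD74, summed to 710 to 745 FPKM at 3D day 8 and 961 to 1164 FPKM at 2D day 4, against 329 to 475 FPKM in wild type at day 0. The endothelial list summed to 4.36 to 4.77 FPKM at 3D day 8 and 16.0 to 22.8 FPKM at 2D day 4, against 34.8 to 44.3 FPKM at day 0. The fibroblast list summed to 0.346 to 0.917 FPKM at 3D day 8 and 0.95 to 2.1 FPKM at 2D day 4, against 3.85 to 8.78 FPKM at day 0. Values in the knockdowns are given beside their results. The part of these markers in the results was not tested.

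In wild-type cells, HSPA5, HSP90B1, PDIA4, CRELD2 and MANF fell at 3D days 3, 5 and 8 and in 2D, and SDF2L1 fell in 2D. HERPUD1 rose at all of these times, and DNAJB9 at all of them but 2D day 11. At 24 h on matrigel, 0 of the 8 genes passed the limma test in either direction (background over all genes tested: 0.629% higher, 0.561% lower; 0 of 8 at an unadjusted p under 0.05). The background split depended on the scaling there, with 74 genes higher and 66 lower as deposited, 84 and 136 with quantile normalization and 122 and 192 with median-ratio scaling. At 3D day 3, 2 genes were higher and 5 lower (background 28% higher, 23.1% lower). The same counts, 2 higher and 5 lower, were found at day 5 (background 26.4% higher, 31.2% lower) and at day 8 (background 24.7% higher, 38% lower). At 2D day 4, 2 were higher and 6 lower (background 30.3% higher, 29.6% lower), and at 2D day 11, 1 was higher and 6 lower (background 32.2% higher, 23.7% lower). The median log2 fold change of the 8 genes was -0.79 at 3D day 8, against -0.13 over all genes, and -0.86 at 2D day 4, against 0.00 over all genes. Median-ratio scaling moved the median over all genes at 3D day 8 to 0.02, with 3936 genes higher and 3800 lower in place of 2911 and 4478, and kept the same 2 members higher and 5 lower. These comparisons share the 4 day 0 libraries. All fold changes are on the log2(FPKM + 1) scale, which understates changes of low genes, and adjusted p-values come from limma with Benjamini-Hochberg adjustment over all genes tested. In these bulk samples, fewer cells with a message and less message per cell cannot be told apart.

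**Figure D1:**
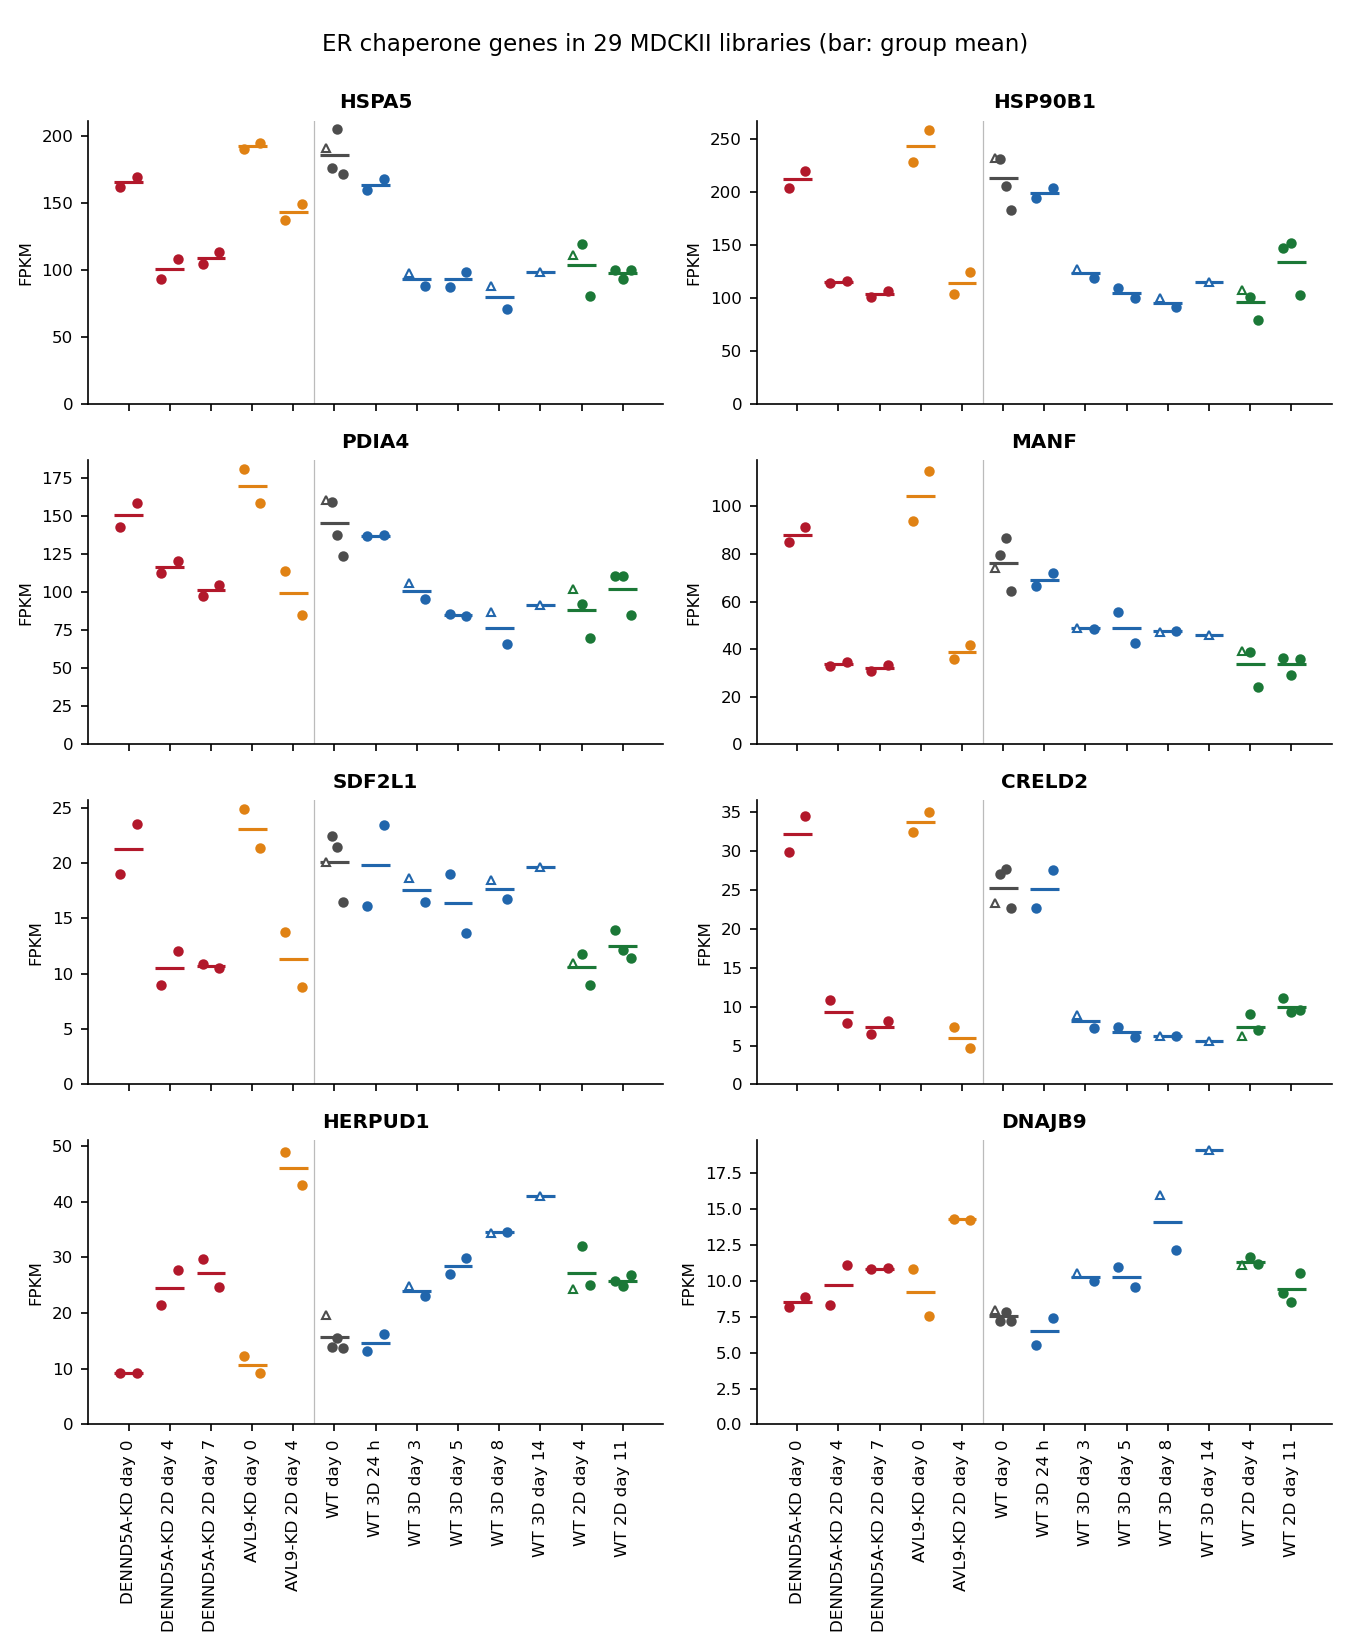
FPKM (y axis) of the 8 ER chaperone genes in each library (points), by group (x axis), with a bar at the group mean; triangles are the 5 wild-type libraries set apart above. HSPA5, HSP90B1, PDIA4, MANF and CRELD2 lie highest at day 0 and 24 h, whereas HERPUD1 reads 34.4 and 34.6 FPKM at 3D day 8 against 13.7 to 19.7 FPKM in wild type at day 0.

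HSPA5 (ENSCAFG00000020196) encodes BiP, the main Hsp70 chaperone of the ER lumen. It read 191, 176, 205 and 172 FPKM in the day 0 libraries, 160.2 and 168 FPKM at 24 h, 98.3 and 88.5 FPKM at 3D day 3, 87.4 and 99.2 FPKM at day 5, and 88.6 and 71.1 FPKM at day 8. In 2D it read 112, 119 and 80.9 FPKM at day 4 and 100.3, 93.6 and 100.3 FPKM at day 11. Every library from 3D day 3 on and every wild-type 2D library was below every day 0 library, and the 24 h libraries lay just below the day 0 range. The log2 fold change was -0.99 ± 0.13 (SE, adjusted p = 5.91e-06) at 3D day 3, -1.22 ± 0.13 (adjusted p = 1.75e-07) at day 8 and -0.85 ± 0.12 (adjusted p = 3.29e-06) at 2D day 4.

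HSP90B1 (ENSCAFG00000007427), the ER member of the Hsp90 family known as GRP94, had the highest mean of the 8 genes, 148 FPKM over all libraries. It averaged 213 ± 23.2 FPKM at day 0 (SD, n = 4), 199.7 ± 6.79 FPKM at 24 h, 124 ± 5.65 FPKM at 3D day 3, 105 ± 6.31 FPKM at day 5 and 96.1 ± 5.87 FPKM at day 8 (SD, n = 2 each). In 2D it averaged 96.2 ± 14.9 FPKM at day 4 and 134 ± 26.6 FPKM at day 11 (SD, n = 3 each). The 24 h libraries, at 195 and 204 FPKM, lay within the day 0 range. From 3D day 3 on and in 2D, the highest library, 152 FPKM at 2D day 11, was below the lowest day 0 library, 184 FPKM. HSP90B1 fell by 1.14 on the log2 scale at 3D day 8 (SE 0.15, adjusted p = 1.53e-06) and by 1.15 at 2D day 4 (SE 0.13, adjusted p = 2.82e-07).

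PDIA4 (ENSCAFG00000003403), a protein disulfide isomerase also called ERp72, was among the 3 most abundant of the 8 genes. It read 160.2, 159, 137 and 123 FPKM at day 0, 136 and 137 FPKM at 24 h, 106 and 95.4 FPKM at 3D day 3, 85.5 and 83.9 FPKM at day 5, and 86.8 and 66.0 FPKM at day 8. The 3D libraries from day 3 on did not overlap those of day 0, and the day 8 log2 fold change was -0.92 ± 0.16 (adjusted p = 4.86e-05). The smaller change at day 3, -0.52 ± 0.16 (adjusted p = 0.0108), lost its call without replicate 2 of day 3 (adjusted p = 0.103). In 2D, PDIA4 fell by 0.72 at day 4 (adjusted p = 0.000176) and by 0.51 at day 11 (adjusted p = 0.00456).

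CRELD2 (ENSCAFG00000000709), an ER stress-inducible protein that acts in disulfide exchange, had the largest fall of the 8 genes in each 3D and 2D comparison with day 0 from day 3 on. It read 23.4, 27.1, 27.7 and 22.7 FPKM at day 0, 22.6 and 27.6 FPKM at 24 h, 8.93 and 7.32 FPKM at 3D day 3, 7.39 and 6.07 FPKM at day 5, and 6.29 and 6.27 FPKM at day 8. The 24 h libraries overlapped those of day 0 and the later ones were below both. The log2 fold change was -1.52 ± 0.16 at 3D day 3 (adjusted p = 5.93e-07) and -1.84 ± 0.16 at day 8 (adjusted p = 1.46e-08). In 2D it was -1.64 ± 0.15 at day 4 (adjusted p = 1.2e-08) and -1.25 ± 0.15 at day 11 (adjusted p = 6.83e-07).

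MANF (ENSCAFG00000010269), an ER protein that binds BiP and can be secreted, read 74.3, 79.6, 86.7 and 64.6 FPKM at day 0 and 66.4 and 71.9 FPKM at 24 h. At 3D days 3, 5 and 8 its 6 libraries read 42.5 to 55.5 FPKM. In 2D the libraries read lower still, at 39.1, 38.7 and 24.0 FPKM on day 4 and 36.5, 29.1 and 35.8 FPKM on day 11. MANF fell by 0.66 at 3D day 8 (SE 0.16, adjusted p = 0.00161) and by 1.17 at 2D day 4 (SE 0.15, adjusted p = 9.34e-07). Its call at 3D day 5 (-0.63, adjusted p = 0.00275) was lost without replicate 3 of that day (adjusted p = 0.082).

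SDF2L1 (ENSCAFG00000015309), a soluble partner of ER J-domain proteins, was the member without a call in any 3D comparison with day 0. It read 20.1, 22.5, 21.4 and 16.5 FPKM at day 0, and 18.5 and 16.7 FPKM at 3D day 8, which lie within the day 0 range. The day 8 log2 fold change was -0.18, with a 95% interval of -0.53 to 0.18 (adjusted p = 0.42). In 2D it read 11.0, 11.8 and 8.97 FPKM on day 4 and 14.0, 12.1 and 11.4 FPKM on day 11, all below the day 0 libraries. It fell by 0.86 at 2D day 4 (SE 0.16, adjusted p = 0.000113) and by 0.64 at day 11 (SE 0.16, adjusted p = 0.00216).

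**Figure D2:**
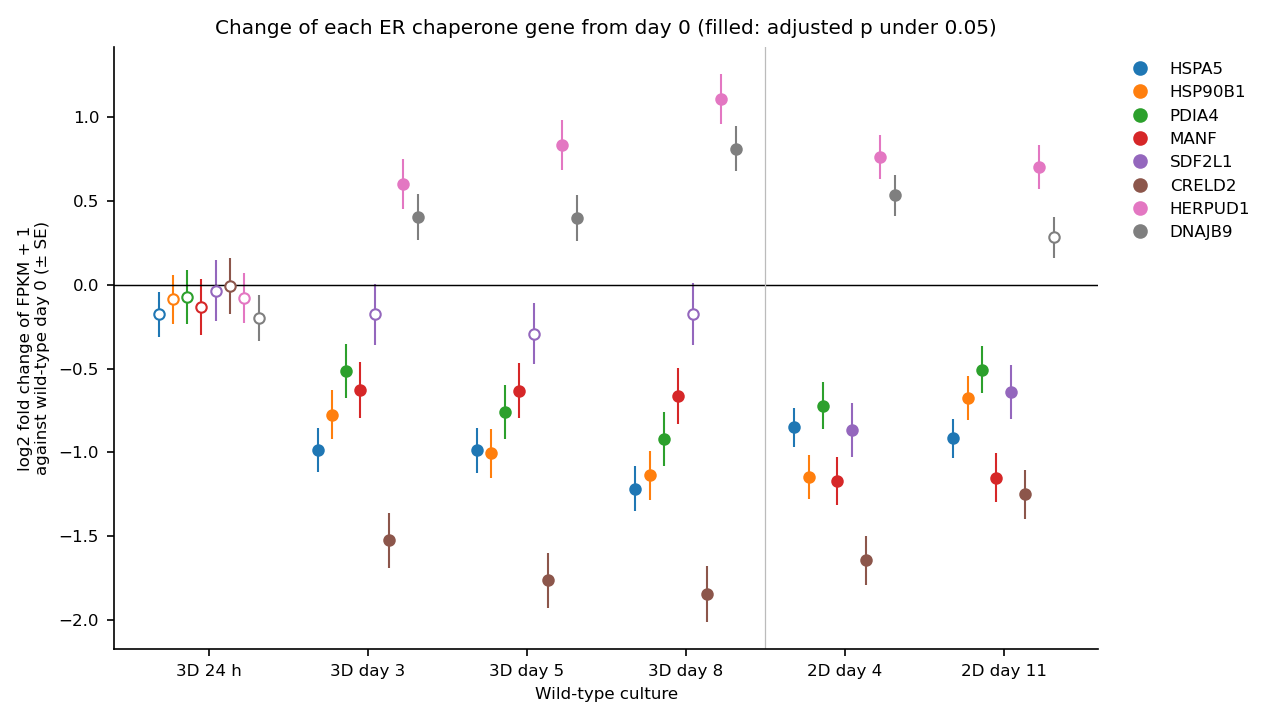
Log2 fold change of FPKM + 1 against wild type at day 0 (y axis, point ± SE) for the 8 genes at each wild-type culture time (x axis); filled points have a limma adjusted p under 0.05. CRELD2 is lowest at every time from 3D day 3 on (-1.25 to -1.84), and HERPUD1 is highest (0.60 to 1.10).

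HERPUD1 (ENSCAFG00000008980), an ER membrane protein that organises the HRD1 complex in ERAD, moved opposite to HSPA5, HSP90B1, PDIA4, CRELD2 and MANF. It read 19.7, 13.8, 15.5 and 13.7 FPKM at day 0, 13.3 and 16.2 FPKM at 24 h, 24.9 and 23.0 FPKM at 3D day 3, 27.1 and 29.8 FPKM at day 5, and 34.4 and 34.6 FPKM at day 8. Every 3D library from day 3 on was above every day 0 library, and so were the 2D libraries, at 24.3, 32.1 and 25.0 FPKM on day 4 and 25.8, 24.9 and 26.8 FPKM on day 11. The log2 fold change was 0.60 ± 0.15 at 3D day 3 (adjusted p = 0.00238), 0.83 ± 0.15 at day 5 (adjusted p = 8.5e-05) and 1.10 ± 0.15 at day 8 (adjusted p = 2.56e-06). In 2D it was 0.76 ± 0.13 at day 4 (adjusted p = 4.9e-05) and 0.70 ± 0.13 at day 11 (adjusted p = 0.000148).

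DNAJB9 (ENSCAFG00000029976), also called ERdj4, is a J-domain partner of BiP that takes part in ERAD and in mice and human cells represses IRE1. It read 7.95, 7.21, 7.80 and 7.17 FPKM at day 0, 5.55 and 7.41 FPKM at 24 h, 10.5 and 10.0 FPKM at 3D day 3, 11.0 and 9.53 FPKM at day 5, and 16.0 and 12.2 FPKM at day 8. The later 3D libraries were all above those of day 0, with a log2 fold change of 0.81 ± 0.14 at day 8 (adjusted p = 3.48e-05). The change of 0.40 at day 3 (adjusted p = 0.0187) was lost without either day 3 library (adjusted p up to 0.117) and without the 5 wild-type libraries set apart, and that of 0.40 at day 5 (adjusted p = 0.0176) without replicate 2 of day 5 (adjusted p = 0.172). At 2D day 4 it rose by 0.53 (SE 0.12, adjusted p = 0.000752). At 2D day 11 the 3 libraries read 8.51 to 10.5 FPKM, above the day 0 range, with a change of 0.28 that missed the threshold (adjusted p = 0.0527) and passed it in 12 of 38 refits, among them the random replicate block (adjusted p = 0.0359), the 2 groups alone (adjusted p = 0.0303) and the batch term for the 5 libraries (adjusted p = 0.0355).

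The ratio of HERPUD1 to HSPA5 FPKM within a library sets these opposite changes in 1 value. In wild type it averaged 0.0841 ± 0.0126 at day 0 (SD, n = 4), 0.0895 at 24 h, 0.257 at 3D day 3, 0.305 at day 5 and 0.437 ± 0.0698 at day 8 (SD, n = 2). In 2D it was 0.265 ± 0.0461 at day 4 and 0.263 ± 0.00567 at day 11 (SD, n = 3 each). The lowest wild-type library from 3D day 3 on or in 2D was at 0.218, and the highest of day 0 or 24 h at 0.103. In the knockdowns the ratio was 0.242 at 2D day 4 and 0.0558 at day 0 in DENND5A-KD cells, and 0.321 at 2D day 4 and 0.0558 at day 0 in AVL9-KD cells (n = 2 each).

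Of the consecutive steps of 3D culture, day 3 against 24 h was the step with called changes: 2 of the 8 genes rose and 3 fell (background 16.7% higher, 17.8% lower). HSPA5 fell by 0.81 (adjusted p = 0.000549), HSP90B1 by 0.69 (adjusted p = 0.00416) and CRELD2 by 1.52 (adjusted p = 1.97e-05). HERPUD1 rose by 0.67 (adjusted p = 0.00515) and DNAJB9 by 0.60 (adjusted p = 0.00614), and both calls were lost without replicate 2 of 24 h (adjusted p = 0.0754 for HERPUD1 and 0.113 for DNAJB9), that of DNAJB9 also with the 2 groups fitted alone (adjusted p = 0.055). At day 8 against 24 h, 2 rose and 5 fell (background 17.3% higher, 36.5% lower). That background was 2038 genes higher and 4293 lower (median -0.19), against 3116 and 3398 with quantile normalization and 3338 and 3248 with median-ratio scaling (median 0.01). MANF, one of the 5 at -0.53 (adjusted p = 0.024), lost its call with quantile normalization (-0.25, adjusted p = 0.179) and median-ratio scaling (-0.27, adjusted p = 0.145). It also lost it without any 1 of the 24 h and day 8 libraries and without the 5 set apart (adjusted p up to 0.116). Limma called 0 of 8 genes at day 5 against day 3 (background 0.0849% higher, 0.306% lower; 0 at an unadjusted p under 0.05), where 10 genes were higher and 36 lower as deposited, 52 and 98 with quantile normalization and 48 and 51 with median-ratio scaling. It called 0 of 8 at day 8 against day 5 (background 0.00849% higher, 0.0255% lower; 1 at an unadjusted p under 0.05, DNAJB9 at 0.41, 95% interval 0.11 to 0.72). In 2D it called 0 of 8 at day 11 against day 4 (background 1.9% higher, 0.178% lower), where 2 had an unadjusted p under 0.05. Over all genes 224 were higher and 21 lower as deposited, 254 and 121 with quantile normalization and 242 and 85 with median-ratio scaling. HSP90B1 was among the 2, at 147, 152 and 104 FPKM on day 11, against 108, 101 and 79.6 FPKM on day 4 (0.47, adjusted p = 0.0843).

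The single day 14 cyst library has no replicate and was not tested. It read 41.0 FPKM for HERPUD1 and 19.1 FPKM for DNAJB9, above both day 8 libraries, and 5.54 FPKM for CRELD2 and 45.9 FPKM for MANF, just below them. HSPA5 (99.2 FPKM), HSP90B1 (115 FPKM) and PDIA4 (91.5 FPKM) were above the day 8 libraries and below every day 0 library. This library is among the 5 set apart.

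Cysts and monolayers differed for MANF and SDF2L1. Across 3D days 3, 5 and 8 against 2D days 4 and 11, 2 of the 8 genes were higher and 1 lower (background 22.1% higher, 34.8% lower). That background was 2602 genes higher and 4094 lower, against 3573 and 3605 with quantile normalization and 3568 and 3560 with median-ratio scaling. MANF read 42.5 to 55.5 FPKM in the 6 cyst libraries and 24.0 to 39.1 FPKM in the 6 monolayer libraries, without overlap, a log2 difference of 0.52 ± 0.11 (adjusted p = 0.000471). SDF2L1 read 13.7 to 19.0 FPKM in cysts and 8.97 to 14.0 FPKM in monolayers, a difference of 0.54 ± 0.12 (adjusted p = 0.000889), with overlap between 1 cyst and 1 monolayer library. CRELD2 was lower by 0.26 in cysts (SE 0.11, adjusted p = 0.0469), a call lost in 20 of the refits, the batch term for the 5 libraries included. For HSPA5 the difference was -0.18, with a 95% interval of -0.35 to -0.01 (adjusted p = 0.0873), and for HERPUD1 it was 0.11, with an interval of -0.08 to 0.31 (adjusted p = 0.338). The times sampled in 3D and 2D differ, so culture form and age cannot be told apart.

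HERPUD1 was lower in both knockdowns than in wild type at day 0, before 2D culture. It read 9.29 and 9.22 FPKM in DENND5A-KD cells and 12.3 and 9.17 FPKM in AVL9-KD cells, against 13.7 to 19.7 FPKM in the 4 wild-type libraries, without overlap. The log2 fold change was -0.69 ± 0.15 in DENND5A-KD (adjusted p = 0.00665) and -0.51 ± 0.15 in AVL9-KD cells (adjusted p = 0.0244). The wild-type library at 19.7 FPKM is among the 5 set apart, and without them the changes were -0.58 (adjusted p = 0.0262) and -0.40 (adjusted p = 0.0588). Both calls were lost when the compared groups were fitted alone (adjusted p = 0.0885 and 0.162). The DENND5A-KD call was also lost without either of its libraries (adjusted p up to 0.0967), and the AVL9-KD call without line 4 (adjusted p = 0.283). Without the shallow AVL9-KD line 1 the change was -0.70 (adjusted p = 0.0272). Other markers moved with the knockdowns at day 0. The fibroblast list summed to 14.1 to 17.5 FPKM in DENND5A-KD and 9.59 to 15.6 FPKM in AVL9-KD cells, against 3.85 to 8.78 FPKM in wild type, and the endothelial list to 53.6 to 55.8 FPKM in DENND5A-KD and 30.2 to 50.0 FPKM in AVL9-KD cells, against 34.8 to 44.3 FPKM in wild type. The leukocyte list summed to 348 to 371 FPKM in DENND5A-KD and 262 to 386 FPKM in AVL9-KD cells, within or below the 329 to 475 FPKM of wild type. The epithelial list summed to 542 to 630 FPKM in DENND5A-KD, 518 to 613 FPKM in AVL9-KD and 513 to 589 FPKM in wild-type cells. The part of these markers in the HERPUD1 difference was not tested. HERPUD1 was the 1 of 8 genes lower in DENND5A-KD, with 0 higher (background 3.27% higher, 2.25% lower), and the 1 of 8 lower in AVL9-KD cells, with 0 higher (background 13.4% higher, 4.59% lower). In the AVL9-KD comparison 1578 genes were higher and 540 lower as deposited (median over all genes 0.11), 899 and 956 with quantile normalization and 1100 and 1152 with median-ratio scaling (median 0.00), where HERPUD1 differed by -0.59 with quantile normalization and by -0.63 with median-ratio scaling. CRELD2 read 29.9 and 34.6 FPKM in DENND5A-KD and 32.5 and 35.0 FPKM in AVL9-KD cells, against 22.7 to 27.7 FPKM in wild type, without overlap. These differences of 0.34 and 0.41 missed the threshold (adjusted p = 0.336 and 0.09), as did that of MANF in AVL9-KD cells (94.1 and 115 FPKM, against 64.6 to 86.7 FPKM in wild type; 0.45, adjusted p = 0.0646). The knockdowns did not differ from each other in a called way at day 0: 0 of 8 genes passed the limma test (background 1.49% higher, 2.62% lower; 0 at an unadjusted p under 0.05). Between the knockdowns, 176 genes were higher and 309 lower in DENND5A-KD cells as deposited, 284 and 157 with quantile normalization and 393 and 244 with median-ratio scaling.

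At 2D day 4, HERPUD1 and HSPA5 were higher in AVL9-KD cells than in wild type. HERPUD1 read 49.0 and 43.0 FPKM in AVL9-KD cells, against 24.3, 32.1 and 25.0 FPKM in wild type, and the group mean of 46.0 ± 4.24 FPKM (SD, n = 2) was the highest of the 13 groups. The log2 fold change was 0.75 ± 0.16 (adjusted p = 0.0026). The median of all genes was 0.19 in this comparison and -0.02 after median-ratio scaling, under which the HERPUD1 difference was 0.50 (adjusted p = 0.035). HSPA5 read 138 and 149.8 FPKM in AVL9-KD cells, against 112, 119 and 80.9 FPKM in wild type, without overlap, a log2 fold change of 0.48 ± 0.14 (adjusted p = 0.0191). That call was lost under median-ratio scaling (0.23, adjusted p = 0.139), quantile normalization (0.25, adjusted p = 0.206), and without wild-type replicate 3 (0.31, adjusted p = 0.106) or either AVL9-KD library. Fitted on the 2 groups alone, neither gene was called (adjusted p = 0.114 for HERPUD1 and 0.245 for HSPA5). Without AVL9-KD line 4, of depth 0.532, HERPUD1 differed by 0.84 (adjusted p = 0.00751) and HSPA5 by 0.42 (adjusted p = 0.107). In all, 2 of 8 genes were higher and 0 lower (background 18.7% higher, 2.34% lower). That background was 2199 genes higher and 275 lower, against 1100 and 973 with quantile normalization and 888 and 876 with median-ratio scaling, each of which left 1 member higher, HERPUD1. The fibroblast list summed to 2.34 to 3.99 FPKM in AVL9-KD, 8.08 to 9.07 FPKM in DENND5A-KD and 0.95 to 2.1 FPKM in wild-type cells. In the same order, the endothelial list summed to 18.9 to 23.4, 26.3 to 27.8 and 16.0 to 22.8 FPKM. The leukocyte list summed to 858 to 1518, 827 to 1197 and 961 to 1164 FPKM. The epithelial list summed to 760 to 824, 545 to 710 and 609 to 732 FPKM. The part of these markers was not tested. DENND5A-KD cells had 0 of 8 genes called (background 5.54% higher, 5.79% lower), with 1 at an unadjusted p under 0.05: PDIA4 read 112 and 120.2 FPKM in DENND5A-KD cells, against 70.1 to 102 FPKM in wild type (0.41, adjusted p = 0.13).

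**Figure D3:**
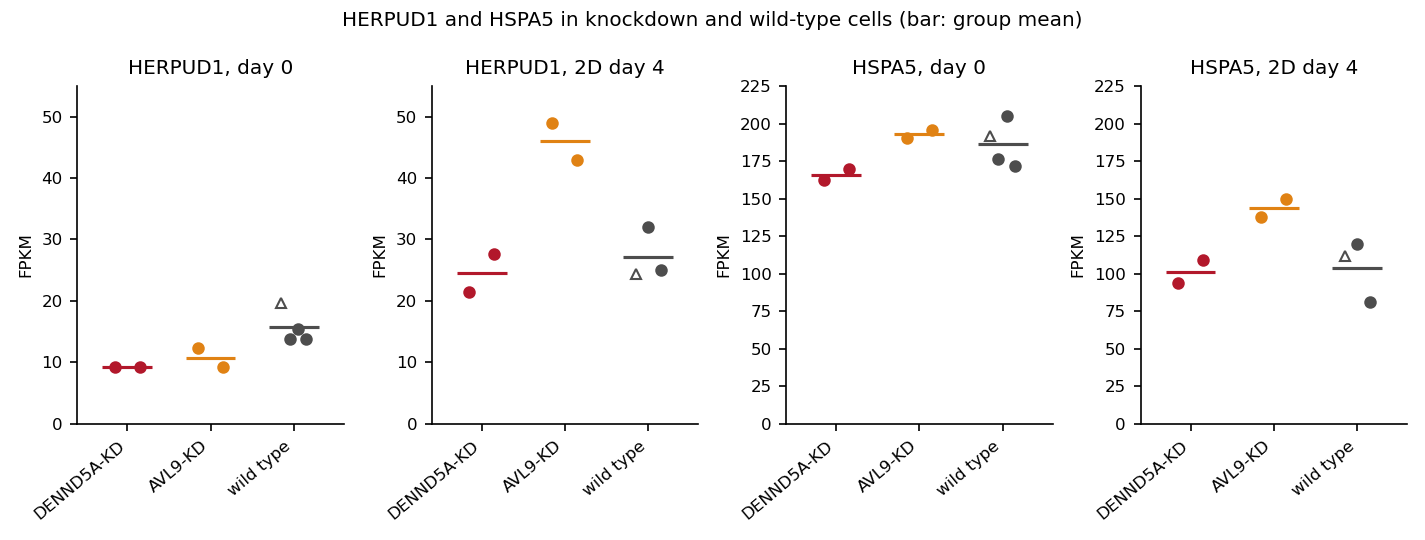
FPKM (y axis) of HERPUD1 and HSPA5 per library (points) in DENND5A-KD, AVL9-KD and wild-type cells (x axis) at day 0 and 2D day 4, with a bar at the group mean; triangles are wild-type libraries of the 5 set apart above, and the shallow AVL9-KD libraries are drawn as circles. HERPUD1 is below wild type in both knockdowns at day 0, and at 2D day 4 the AVL9-KD libraries (49.0 and 43.0 FPKM) lie above all others.

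The change of HERPUD1 from day 0 to 2D day 4 was larger in AVL9-KD cells than in wild type. It rose by 2.01 ± 0.17 in AVL9-KD cells (adjusted p = 1.7e-08), against 0.76 ± 0.13 in wild type, and the interaction was 1.25 ± 0.22 (adjusted p = 0.0074). Its value was between 1.06 and 1.45 under every alternative run, among them 1.45 without the shallow AVL9-KD line 1 of day 0 and 1.34 without line 4 of 2D day 4, and the call was lost when the 4 groups were fitted alone (adjusted p = 0.159). HERPUD1 was the 1 of 8 genes with a higher interaction in AVL9-KD cells, and 0 were lower (background 0.985% higher, 0.238% lower, or 116 and 28 genes, against 110 and 50 with quantile normalization and 109 and 63 with median-ratio scaling). In DENND5A-KD cells 0 of 8 interactions were called (background 1.15% higher, 0.679% lower), with 1 at an unadjusted p under 0.05, that of HERPUD1 (0.55, 95% interval 0.12 to 0.97, adjusted p = 0.248).

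From day 0 to 2D day 4, 1 of 8 genes rose and 5 fell in DENND5A-KD cells (background 20.1% higher, 22.2% lower), and 2 rose and 6 fell in AVL9-KD cells (background 31.1% higher, 22.8% lower). In DENND5A-KD cells HERPUD1 rose by 1.31 (SE 0.17, adjusted p = 9.6e-06), with 21.4 and 27.7 FPKM at 2D day 4, against 9.29 and 9.22 FPKM at day 0. CRELD2 fell by 1.69 there and by 2.33 in AVL9-KD cells, where it read 7.36 and 4.67 FPKM at 2D day 4, against 32.5 and 35.0 FPKM at day 0 (adjusted p = 1.04e-08). With single libraries left out, the CRELD2 change in AVL9-KD cells was -2.61 to -2.05 and the HERPUD1 rise there 1.82 to 2.21. HSPA5 fell by 0.71 in DENND5A-KD (adjusted p = 0.001) and by 0.42 in AVL9-KD cells (adjusted p = 0.0248), a call lost under quantile normalization, with the 2 groups fitted alone, and without either day 0 library or line 1 of day 4 (adjusted p up to 0.161 over these refits). PDIA4 in DENND5A-KD cells, at -0.37 (adjusted p = 0.114), was called only with the line number as a block (adjusted p = 0.019). From 2D day 4 to day 7, 0 of 8 genes were called by limma in DENND5A-KD cells (background 0.017% higher, 0.034% lower; 0 at an unadjusted p under 0.05). Over all genes 2 were higher and 4 lower, against 18 and 109 with quantile normalization and 11 and 77 with median-ratio scaling.

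Set directly against AVL9-KD cells at 2D day 4, DENND5A-KD cells had 1 of 8 genes higher and 3 lower (background 3.28% higher, 19.1% lower, with a median of -0.24 over all genes). As deposited 386 genes were higher and 2254 lower, against 992 and 951 with quantile normalization and 904 and 639 with median-ratio scaling (median 0.00). HERPUD1 read 21.4 and 27.7 FPKM in DENND5A-KD cells, against 49.0 and 43.0 FPKM in AVL9-KD cells (-0.89 ± 0.17, adjusted p = 0.0018), a difference of -0.63 with quantile normalization and -0.61 with median-ratio scaling. HSPA5 (-0.50, adjusted p = 0.0238) and DNAJB9 (-0.52, adjusted p = 0.0236) were also lower in DENND5A-KD cells, and both calls were lost under quantile normalization and median-ratio scaling. CRELD2 was higher (0.58, adjusted p = 0.0354). Without AVL9-KD line 4, of depth 0.532, HERPUD1 kept its call (-0.98, adjusted p = 0.00743) and the other 3 lost theirs, with CRELD2 at 0.30 (adjusted p = 0.344). All 4 calls were lost without line 1 of DENND5A-KD and when the pair of groups was fitted alone (adjusted p up to 0.381 over these refits).

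Related genes were read from lists chosen by their roles, with earlier results of these data known. Of other ER lumen folding genes, 23 were tested, and 8 were higher and 12 lower at 3D day 8 (median -0.27). Over all genes tested, 24.7% were higher and 38% lower at 3D day 8 (median -0.13), and 30.3% higher and 29.6% lower at 2D day 4 (median 0.00), which is the background for each list below. HYOU1, an Hsp70-like exchange factor of BiP, fell by 1.76 (15.2 FPKM at 3D day 8, against 53.7 FPKM at day 0; adjusted p = 2.41e-08). UGGT1, the glucosyltransferase that senses misfolded glycoproteins, fell by 1.09 (adjusted p = 2.03e-07), while ERO1B, an oxidase of disulfide isomerases, rose by 1.11 (adjusted p = 1.14e-06). At 2D day 4, 6 were higher and 12 lower (median -0.29), where ERO1B rose by 1.46 (adjusted p = 6.99e-09), the prolyl isomerase FKBP11 fell by 1.54 (adjusted p = 8.27e-09) and DNAJB11, a BiP partner, fell by 0.78 (adjusted p = 7.5e-07). Of 19 ERAD genes, 3 were higher and 9 lower at 3D day 8 (median -0.29), and 8 were higher and 5 lower at 2D day 4 (median 0.14). The 3 and 9 became 7 and 5 with quantile normalization and 6 and 6 with median-ratio scaling. The ATPase VCP fell by 1.17 at 3D day 8 (adjusted p = 5.88e-08), and ERLEC1, a lectin of ERAD, rose by 1.15 (adjusted p = 1.12e-06).

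The translocon, signal peptidase and export list (19 tested) had 7 genes higher and 9 lower at 3D day 8 and 1 higher and 10 lower at 2D day 4. SEC61A1, the channel subunit, fell by 1.17 at 3D day 8 (adjusted p = 1.32e-06). The split of this list at 3D day 8 was 7 higher and 6 lower with quantile normalization. In cysts against monolayers, 10 of these genes were higher and 4 lower (median 0.30, against 22.1% higher, 34.8% lower and a median of -0.08 over all genes), led by SSR4 of the translocon-associated complex at 1.21 (169 FPKM in cysts, against 71.4 FPKM in monolayers; adjusted p = 3.97e-07). Of the stress sensors and their transcription factors (12 tested), 1 was higher and 3 lower at 3D day 8 (3 and 3 with median-ratio scaling, 3 and 4 with quantile normalization), and 5 were higher and 3 lower at 2D day 4. ATF6, the sensor cleaved in the Golgi, fell by 0.98 at 3D day 8 (adjusted p = 1.87e-06), and ERN1, which encodes IRE1, rose by 0.74 at 2D day 4 (adjusted p = 3.38e-05). Of the cytosolic and mitochondrial heat shock list (12 tested), 1 was higher and 7 lower at 3D day 8 (median -0.64), and 1 was higher and 7 lower at 2D day 4 (median -0.48).

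The PERK and ATF4 list (12 tested) moved in both directions in wild-type cultures, with 3 higher and 5 lower at 3D day 8 and 2 higher and 5 lower at 2D day 4. TRIB3, a pseudokinase induced by ATF4, fell by 2.51 at 3D day 8 (1.5 FPKM, against 13.3 FPKM at day 0; adjusted p = 7.54e-07), and VLDLR rose by 1.43 (adjusted p = 3.96e-06). In AVL9-KD cells at 2D day 4, 10 of the 12 were higher and 0 lower than in wild type (median 1.03), where over all genes 18.7% were higher and 2.34% lower (median 0.19). DDIT4, an mTOR inhibitor, read 30.0 FPKM in AVL9-KD cells, against 5.67 FPKM in wild type (2.21, adjusted p = 4.01e-05). TRIB3 was higher by 2.16 (adjusted p = 0.000137) and CEBPB, a bZIP factor, by 1.40 (adjusted p = 0.000566). With median-ratio scaling or quantile normalization 8 of the 12 were called, without the 5 libraries 11, and with the 2 groups fitted alone 0. The interaction was called higher for 5 of 12 (0.985% of all genes), among them PPP1R15A, which directs dephosphorylation of eIF2α (2.35, adjusted p = 0.000668). Of the ER lumen folding genes, 8 of 23 were higher and 0 lower in AVL9-KD cells (median 0.37), and 5 higher and 1 lower with median-ratio scaling, where the shares over all genes are those given for the list above. DENND5A-KD cells at 2D day 4 had 1 of the 12 PERK and ATF4 genes higher, TRIB3 (1.03, adjusted p = 0.0433), and 0 lower. At day 0, 3 were lower than in wild type and 0 higher (median -0.46, over all genes 3.27% higher, 2.25% lower). Their interaction was called higher for 1 (median 0.80, over all genes 1.15%). From day 0 to 2D day 4, 8 rose and 0 fell in DENND5A-KD cells (median 0.92, over all genes 20.1% higher, 22.2% lower). In AVL9-KD cells 9 rose and 0 fell (median 1.68, over all genes 31.1% higher, 22.8% lower). DNAJC10, an ER disulfide reductase, was higher in DENND5A-KD cells (0.73 at day 0 and 0.76 at 2D day 4) and in AVL9-KD cells (0.92 at day 0 and 0.64 at 2D day 4) than in wild type.

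**Figure D4:**
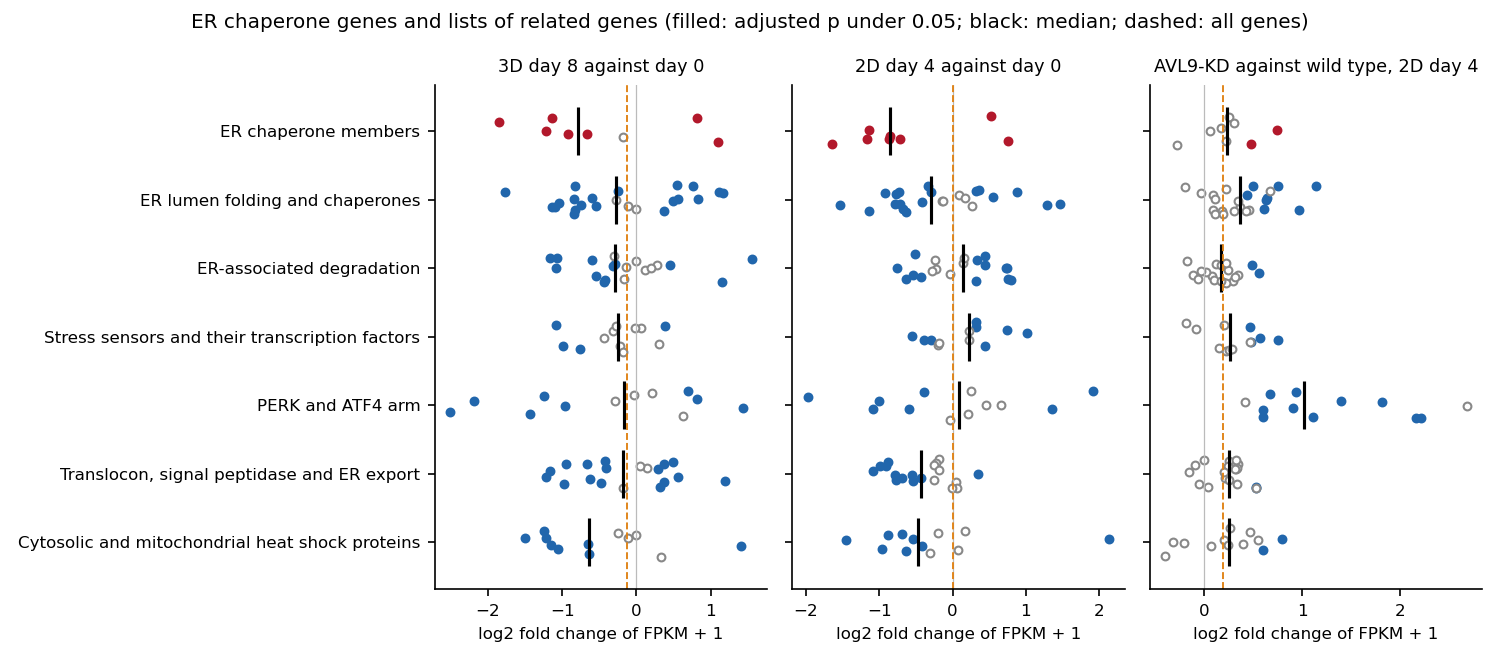
Log2 fold change of FPKM + 1 (x axis) of each tested gene (points) in the 8 ER chaperone genes and 6 lists of related genes (y axis), in 3 comparisons; filled points have a limma adjusted p under 0.05, black bars are list medians and dashed lines the median over all genes. In AVL9-KD cells against wild type at 2D day 4, the PERK and ATF4 list has a median of 1.03, against 0.19 over all genes.

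Across the 13 group means of log2(FPKM + 1), 5 of the 8 genes, HSPA5, HSP90B1, PDIA4, CRELD2 and MANF, correlated with each other at Pearson r = 0.75 or more. HSP90B1 correlated with CRELD2 (Pearson r = 0.96), PDIA4 (r = 0.95), HSPA5 (r = 0.89) and MANF (r = 0.88). HERPUD1 correlated with DNAJB9 (r = 0.79) and had r of -0.96 with CRELD2 and -0.71 with HSPA5. SDF2L1 was closest to MANF (r = 0.89) and less close to HSPA5 (r = 0.45) and PDIA4 (r = 0.49). DNAJB9 had r of -0.22 with SDF2L1, -0.46 with MANF and -0.77 with CRELD2. These values describe 13 group means on the same FPKM scale, between which culture form, culture age and knockdown differ. Among 6910 genes whose mean reached 5 FPKM, those most like HSPA5 over the 13 groups were RRP12, KAT2A, POLR1A, PARP1, SDAD1, GNL3L, NOP14 and DDX21 (r = 0.977 to 0.987). Those most like the mean z-score of the 8 genes were DIEXF, GAR1, UTP6, PHAX, RUVBL1, CCT5, EIF2B1 and ELP2 (r = 0.965 to 0.98).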

How the data were processed

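FPKM values were deposited by the authors, 1 file per library with 24223 dog genes by Ensembl identifier. Libraries were of stranded mRNA, per the labels' protocols. The submitters' processing notes name HISAT2 2.1.0 and Cufflinks 2.2.1 as tools and canFam3 and CanFam3.1 as builds, without saying what each did; further scaling is not given in the sources used here. A symbol was missing for 5715 genes. No coordinates or sequences were used. The 9 genes and the lists were chosen with earlier results of these data known.

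Genes reaching 1 FPKM in 2 or more libraries (11774) entered a linear model of log2(FPKM + 1) with a mean for each group and all 29 libraries, in limma 3.58.1 with an intensity trend (R 4.3.3). The 23 contrasts were tested two-sided with Benjamini-Hochberg adjustment over all genes, at 0.05. Other steps used Python 3.11.15. The fit was tested on simulated data. From each list, up to 3 genes with the smallest adjusted p were named for a comparison described, and the 8 genes most like the members' mean or HSPA5 by correlation over group means.

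Alternatives were a pseudocount of 0.1, no filter, quantile normalization, median-ratio scaling, the replicate or line number as a random or fixed block, the compared groups alone, each library left out, and, added after seeing the data, a batch term for or removal of the 5 wild-type libraries set apart. Knockdown samples with the same number carry the same line name, which pairs them: their deviations correlated at 0.358 for AVL9-KD and 0.0101 to 0.0966 for DENND5A-KD. Wild-type numbers were not taken to pair samples. Their same-number correlations ran from -0.16 to 0.558, with 19 of 41 above 0.1, so these values do not settle whether they pair. Absolute depth is unknown, so no counting intervals are given; relative depth came from steps between values under 0.15 FPKM.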

Additional observations from a re-analysis of the deposited data

Results flagged for a closer look

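The change of HERPUD1 from day 0 to 2D day 4 differed between AVL9-KD and wild-type cells by 1.25 on the log2 scale, by the interaction test. That call was lost when the 4 groups were fitted alone. At 2D day 4, 4 of the genes differed between the knockdowns by direct test, DENND5A-KD minus AVL9-KD: HERPUD1 by -0.89, DNAJB9 by -0.52, HSPA5 by -0.50 and CRELD2 by 0.58. The median over all genes was -0.24 in this comparison. Quantile normalization and median-ratio scaling each removed the calls of HSPA5 and DNAJB9, and fitting the pair of groups alone removed all 4. No library of a group of 4 was far enough from the others to be singled out for any of the 8 genes.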

How the results depend on the processing

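Across 2812 refits of the 74 called changes of the 8 genes, 0 reversed. Most refits left out a single library, often one outside the compared groups. Such a refit keeps the fold change and moves only the shared spread, so it could not reverse a change. The call was kept in every refit for 53 of the 74 and lost in some for 21 (75 refits in all), and 11 of the 110 uncalled changes gained a call in some. Among changes uncalled in both fits, 141 refits had the other sign. FPKM without counts limits precision for low genes, most groups have 2 libraries, and the cause of the moves below was not tested unless stated; fits on the compared groups alone have fewer residual degrees of freedom by construction.

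These are the counts of the 8 genes that moved by over 1.5 times or to or from 0; smaller moves come after them. With the compared groups fitted alone, the count was 0 where 1 had been called at day 0 in DENND5A-KD and in AVL9-KD cells, 0 for 2 in AVL9-KD cells at 2D day 4, 0 for 1 in the AVL9-KD interaction, 4 for 8 in AVL9-KD cells at 2D day 4 against day 0, and 0 for 4 between the knockdowns at 2D day 4. With quantile normalization or median-ratio scaling it was 1 for 2 in AVL9-KD cells at 2D day 4 and 1 for 0 in DENND5A-KD cells at 2D day 4. At 2D day 11 against day 4 it was 1 for 0 with median-ratio scaling, the batch term or the replicate number as a random or fixed block. With the replicate or line number as a fixed block or the batch term it was 1 for 0 in DENND5A-KD cells at 2D day 4 and 2 for 1 in AVL9-KD cells at day 0, where it was 0 without the 5 libraries. Whether wild-type numbers pair samples is not settled. Within the knockdown lines, whose names pair them, the block changed no other call of the 8 genes than that of PDIA4 given above. Smaller moves were 7 for 5 at 3D day 3 against 24 h, where PDIA4 and MANF gained calls (both scalings, both blocks, batch term), 6 for 7 at 3D day 8 against 24 h (both scalings, without the 5 libraries), 8 for 7 at 2D day 11 against day 0 through DNAJB9 (random block, groups alone, batch term), and 3 for 2 in AVL9-KD cells at 2D day 4 through HSP90B1 (fixed block). Further ones were 6 for 7 at 3D day 3 against day 0 (without the 5), 4 (quantile) and 2 (no filter, fixed block) for 3 in cysts against monolayers, 7 for 6 in DENND5A-KD cells at 2D day 4 against day 0 (fixed block), 7 for 8 in AVL9-KD cells there (quantile), 6 for 5 at 3D day 3 against 24 h (groups alone), and 3 for 4 between the knockdowns at 2D day 4 (both scalings). Leaving out single libraries gave 5 to 7 (3D day 3 against day 0), 6 to 7 (3D day 5 against day 0 and day 8 against 24 h), 7 to 8 (2D day 11 against day 0), 2 to 3 (cysts against monolayers), 6 to 8 (AVL9-KD, 2D day 4 against day 0), 3 to 7 (3D day 3 against 24 h), 0 to 1 (2D day 11 against day 4), 0 to 1 (DENND5A-KD against wild type, day 0), 0 to 2 (AVL9-KD against wild type, day 0), 1 to 2 (AVL9-KD against wild type, 2D day 4) and 0 to 4 (DENND5A-KD against AVL9-KD, 2D day 4).

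Counts of all genes called moved as follows. At 24 h, 140 became 220 (quantile), 314 (median-ratio), 304 (random block) and 16 (groups alone). At 3D day 5 against day 3, 46 became 70 (pseudocount 0.1), 75 (no filter), 150 (quantile), 99 (median-ratio), 80 (random block), 0 (groups alone), 20 (batch term) and 2 (without the 5 libraries). At day 8 against day 5, 4 became 14 (pseudocount), 15 (no filter), 9 (quantile), 21 and 19 (random and fixed block), 1 (groups alone) and 8 (batch term). At 2D day 11 against day 4, 245 became 375 (quantile), 520 and 483 (random and fixed block), 2 (groups alone) and 385 (batch term). With the groups alone, DENND5A-KD at day 0 had 400 for 650, AVL9-KD at day 0 342 for 2118, and AVL9-KD at 2D day 4 against day 0 3502 for 6346. DENND5A-KD at 2D day 4 had 2069 (quantile) and 97 (groups alone) for 1334, and AVL9-KD 3771 (fixed block) and 25 (groups alone) for 2474. The DENND5A-KD interaction had 459 (quantile), 462 (median-ratio), 436 and 445 (random and fixed block) and 74 (groups alone) for 215, and the AVL9-KD interaction 270 and 252 (random and fixed block) and 15 (groups alone) for 144. DENND5A-KD at 2D day 7 against day 4 had 0 (pseudocount), 21 (no filter), 127 (quantile), 88 (median-ratio), 76 and 14 (random and fixed block) and 23 (batch term) for 6. Between the knockdowns, 485 at day 0 became 1347 (fixed block), 849 (batch term) and 5 (groups alone), and 2640 at 2D day 4 became 1543 (median-ratio) and 0 (groups alone). Leaving out single libraries gave 17 to 175 (3D 24 h against day 0), 2337 to 4228 (3D day 3 against 24 h), 2 to 127 (3D day 5 against day 3), 1 to 17 (3D day 8 against day 5), 0 to 590 (2D day 11 against day 4), 207 to 739 (DENND5A-KD against wild type, day 0), 745 to 2572 (AVL9-KD against wild type, day 0), 416 to 1462 (DENND5A-KD against wild type, 2D day 4), 1184 to 2675 (AVL9-KD against wild type, 2D day 4), 45 to 419 (DENND5A-KD interaction, 2D day 4 against day 0), 59 to 266 (AVL9-KD interaction, 2D day 4 against day 0), 3315 to 5140 (DENND5A-KD, 2D day 4 against day 0), 0 to 213 (DENND5A-KD, 2D day 7 against day 4), 94 to 703 (DENND5A-KD against AVL9-KD, day 0) and 349 to 2898 (DENND5A-KD against AVL9-KD, 2D day 4).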

Other observations

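Genes most like HERPUD1 over the 13 group means were looked up after its values were seen. They were SARAF, TAF7, RBM5, DNAJC30, C1S, PPP2R5A, GLMP and SUOX (Pearson r = 0.949 to 0.961 among 6910 genes). SARAF encodes an ER membrane regulator of calcium entry.

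Over all 29 libraries CRELD2 had the widest range of group means of the 8 genes, a 6.09-fold span between AVL9-KD cells at day 0 (33.8 FPKM) and the day 14 cyst library (5.54 FPKM). HERPUD1 spanned 4.97-fold, between AVL9-KD cells at 2D day 4 (46.0 FPKM) and DENND5A-KD cells at day 0 (9.25 FPKM). SDF2L1 had the narrowest span, 2.2-fold. AVL9-KD cells at day 0 had the highest group mean for HSPA5 (193 FPKM), HSP90B1 (244 FPKM), PDIA4 (169.5 FPKM), SDF2L1 (23.1 FPKM), CRELD2 and MANF (104 FPKM). Against wild type at day 0, 0 of the 8 genes were called higher there, and the median over all genes was 0.11. For HSPA5 the 2 AVL9-KD libraries, at 190 and 195 FPKM, lay within the wild-type range of 172 to 205 FPKM.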
